A study of Homo sapiens with 3 samples.

Results

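The small leucine-rich proteoglycans were followed through 22 probe sets that name 1 of 8 genes in the platform annotation: LUM (lumican), DCN (decorin), BGN (biglycan), FMOD (fibromodulin), OGN (osteoglycin), PRELP, ASPN (asporin) and OMD (osteomodulin). They are 22 of the 54613 probe sets analysed, with 2 for LUM, 7 for DCN, 3 for BGN, 1 for FMOD, 2 for OGN, 3 for PRELP, 2 for ASPN and 2 for OMD, and none of them shares its annotation with another gene. LUM was chosen by its signals in siRNA and scrambled cells, and the other genes as its family, with these values known, so that this difference is described for the 8 genes and not tested. The study used human SK-Mel-28 cells, an established melanoma line that makes melanotransferrin (MTf, gene symbol MELTF), an iron-binding protein of the cell surface. The compared groups were cells stably carrying the vector pSilencer 3.1-H1 neo with a hairpin siRNA against MTf (2 arrays, labelled B1 and B2 and called siRNA arrays 1 and 2) and cells carrying the same vector with a scrambled hairpin (1 array). Total RNA from each was hybridised to Affymetrix HG-U133 Plus 2.0, a whole-transcriptome array. The labels do not say whether the arrays came from separate clones or cultures, so that the spread between the siRNA arrays may be technical and the scrambled array has no replicate.

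Small leucine-rich proteoglycans are secreted core proteins built of leucine-rich repeats, most of which carry chondroitin, dermatan or keratan sulphate chains. They bind collagen and set the spacing and thickness of its fibrils, and several also bind growth factors or receptors such as TGF-beta, MET and the Toll-like receptors. Fibroblasts and other connective tissue cells are their usual source, and lumican has also been studied in melanoma cells, where it is known to reduce migration.

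Signals are linear and in arbitrary units. Control probe sets for the bacterial gene trp read 7.0 to 97.2, and 97.2 is used here as the level below which a signal is called dim. Of the 22 probe sets, 7 were above that level on all 3 arrays, 2 on 1 or 2 arrays, and 13 were at or below it on every array. The melanocyte markers measured (7 of 8 listed) were above it on all arrays, with MLANA at 63275 and 69169 on the siRNA arrays and 61769 on the scrambled array, and limma called 1 of them, the pigment enzyme gene TYRP1, which fell (5022 and 12370 on the siRNA arrays, 53204 on the scrambled array, adjusted p = 0.0374). That call was lost with quantile normalization (adjusted p = 0.0537) and without a trend in the moderation (0.161). It was also lost with no filter on low signals (0.164) or one at the 75th percentile (0.0702). TYR went the other way, at 35193 and 37555 on the siRNA arrays and 19988 on the scrambled array (adjusted p = 0.0529 by limma). With quantile normalization 1 of these markers was still called, though not TYRP1. Over all genes past the filter, limma called 2.64% in either direction. MELTF itself, the target, read 18968 and 18974 on the siRNA arrays against 32608 on the scrambled array in its brightest probe set (adjusted p = 0.0699 by limma, 0.00500 with arrays centred on their medians and 0.573 over the mean of its probe sets), while its next brightest read 10567 and 11199 on the siRNA arrays against 8284 on the scrambled array. The remaining MELTF probe sets were split as well. Probe set 220043_s_at read 699.7 and 283.6 on the siRNA arrays and 915.2 on the scrambled array. In 1556538_at the siRNA arrays read 693.7 and 665.7 and the scrambled array 546.4. Control probe sets for 18S ribosomal RNA on siRNA array 1 had a median of 4.01 times their signal on the scrambled array. Those on siRNA array 2 had 0.963 times that signal.

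Lumican was the member with the large difference. Its brighter probe set, 201744_s_at, read 4850 and 4841 in the siRNA cells, against 598.6 on the scrambled array. Both siRNA arrays were therefore well above the scrambled array and differed from each other by far less than either did from it. The siRNA mean was 4845 ± 6.65 (SD, n = 2), and the geometric mean of the siRNA signals was 8.09 times the scrambled signal. On the log2(signal + 47.4) scale used for all differences, which understates those of dim probe sets, siRNA minus scrambled was 2.92 on each siRNA array. In RNA pooled from all cells, more cells with LUM RNA and more LUM RNA per cell cannot be told apart.

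The other LUM probe set, 229554_at, did not show this. It read 171.2 and 138.9 on the siRNA arrays and 139.8 on the scrambled array, so that the groups overlapped, and its log2 differences were 0.22 and -0.01. The statement that LUM was higher thus rests on 1 of its 2 probe sets, and the average over both was a log2 difference of 1.51. What each probe set hybridises to was not tested.

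**Figure D1:**
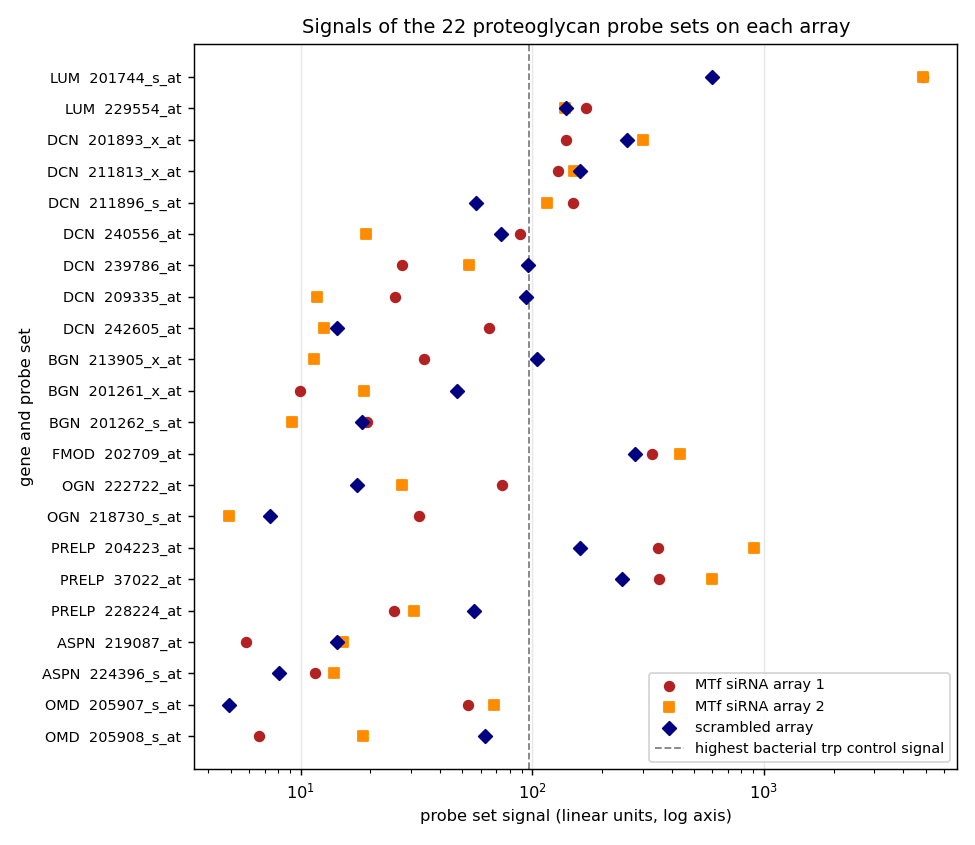
Signal of each of the 22 proteoglycan probe sets (rows) on siRNA array 1 (circles), siRNA array 2 (squares) and the scrambled array (diamonds), on a log axis in linear signal units. The dashed line is the highest bacterial trp control signal, 97.2. For LUM 201744_s_at the 2 siRNA points, 4850 and 4841, lie on top of each other, to the right of the scrambled point at 598.6, and 13 probe sets stay at or left of the line on all arrays.

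PRELP and FMOD were also measured above the dim level on all arrays, each in its brightest probe set. PRELP anchors basement membranes to connective tissue through its binding of heparan sulphate and collagen. Its probe set 204223_at read 348.8 and 905.3 on the siRNA arrays and 160.9 on the scrambled array. The siRNA arrays did not overlap with the scrambled array, but they differed from each other by 2.60-fold, and the log2 differences were 0.93 and 2.19. Probe set 37022_at of PRELP read 351.9 and 594.9 on the siRNA arrays against 245.1 on the scrambled array, with log2 differences of 0.45 and 1.13. Both of these probe sets were higher on siRNA array 2 than on siRNA array 1. The last PRELP probe set, 228224_at, was dim, at 25.4 and 30.8 on the siRNA arrays and 56.2 on the scrambled array, and went the other way.

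FMOD, which regulates the thickness and cross-linking of collagen fibrils, has 1 probe set, 202709_at. It read 329.3 and 432.3 on the siRNA arrays and 278.9 on the scrambled array, with log2 differences of 0.21 and 0.56. The lower siRNA signal was 1.18 times the scrambled one, a smaller step than the 1.31-fold between the siRNA arrays. OMD, a keratan sulphate proteoglycan of bone, was dim throughout, and its probe sets went opposite ways. Probe set 205907_s_at read 52.8 and 68.1 on the siRNA arrays and 4.9 on the scrambled array, whereas 205908_s_at read 6.6 and 18.6 on the siRNA arrays against 62.5 on the scrambled array. No fold is given for signals that are dim in both groups.

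Decorin and biglycan, which carry chondroitin or dermatan sulphate, were not higher in the siRNA cells in the way that LUM was. Decorin binds collagen and TGF-beta and is known to antagonise the receptors EGFR and MET. Its brightest probe set, 201893_x_at, read 139.9 and 301.3 on the siRNA arrays and 256.0 on the scrambled array, so that the siRNA arrays lay on either side of the scrambled one. Probe set 211813_x_at read 129.5 and 152.2 on the siRNA arrays and 161.0 on the scrambled array, a log2 difference of -0.15 in the mean. Probe set 211896_s_at read 149.4 and 116.0 on the siRNA arrays against a dim 57.1 on the scrambled array, at least 1.35-fold higher in the geometric mean with signals raised to 97.2. The other 4 DCN probe sets (209335_at, 239786_at, 240556_at and 242605_at) were dim on every array, from 11.8 to 88.8 on the siRNA arrays and from 14.4 to 96.3 on the scrambled array. Biglycan, which besides collagen binds the receptors TLR2 and TLR4, read 34.0 and 11.4 on the siRNA arrays in 213905_x_at, against 104.7 on the scrambled array, at least 1.08-fold lower. The other BGN probe sets, 201261_x_at and 201262_s_at, were dim, at 9.2 to 19.3 on the siRNA arrays and 47.2 and 18.5 on the scrambled array.

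Osteoglycin (OGN) and asporin (ASPN) gave no signal above the dim level on any array, and neither did OMD. Osteoglycin, found in cornea and bone, read 73.7 and 27.5 on the siRNA arrays and 17.5 on the scrambled array in 222722_at. In 218730_s_at it read 32.4 and 4.9 on the siRNA arrays and 7.4 on the scrambled array. Asporin, which binds TGF-beta in cartilage, stayed between 5.8 and 15.3 on the siRNA arrays over both of its probe sets and read 14.4 and 8.1 on the scrambled array.

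Counted over the 22 probe sets, 8 were higher and 7 were lower on both siRNA arrays than on the scrambled array. Among all 54613 probe sets, 42.3% were higher and 29.9% lower on both. A 2-fold step on each siRNA array was reached by 1 probe set in the higher direction, LUM 201744_s_at, and by 0 in the lower direction, with no test for either. Over all probe sets, 2012 (3.68%) were at least 2-fold higher and 1198 (2.19%) at least 2-fold lower on both, or 1310 and 1879 with each array centred on its median. PRELP 204223_at lay just short of that count, at 0.93 on siRNA array 1. OMD 205907_s_at (0.94 on siRNA array 1) and DCN 209335_at (-0.95 on siRNA array 1) were just short as well, at dim signals. Only 5 of the 22 passed the filter on low signals, which took probe sets above the median of the mean log2 value (7.74), and these belonged to 4 genes (LUM, DCN, FMOD and PRELP). The median over the 8 genes, each by its brightest probe set, was a log2 difference of 0.47, against 0.075 over 19775 genes, but 4 of the 8 values come from probe sets dim on at least 2 of the arrays and depend on the pseudocount. Both differences of each probe set use the same scrambled array.

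**Figure D2:**
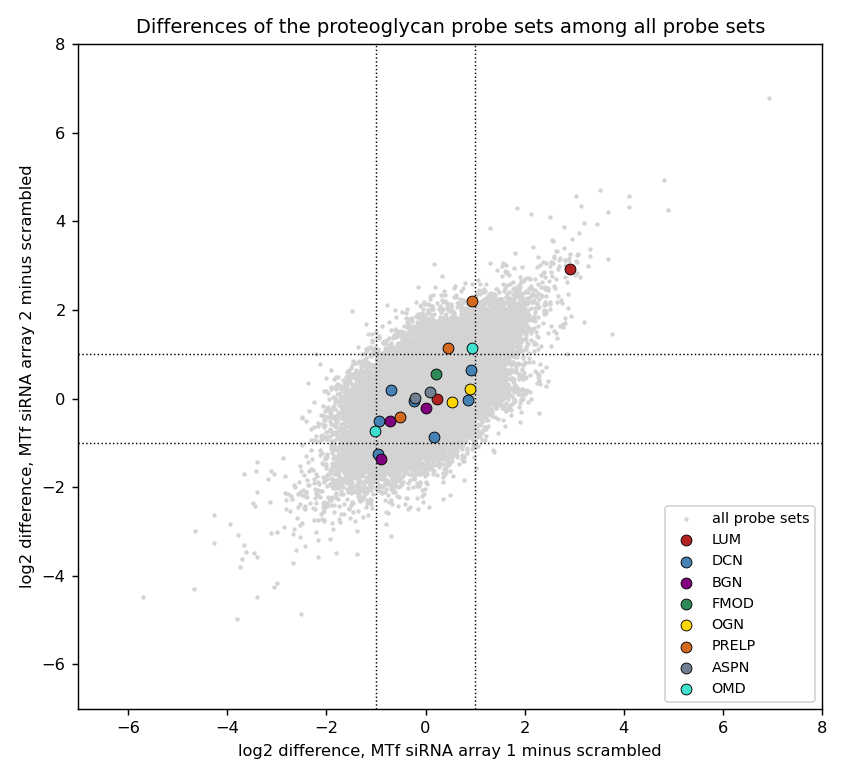
Log2 difference from the scrambled array on siRNA array 1 (horizontal) and siRNA array 2 (vertical) for the 22 proteoglycan probe sets (coloured by gene) and all probe sets (grey). Both axes share the scrambled array, and the dotted lines mark 2-fold. LUM 201744_s_at is the 1 coloured point past 2-fold on both axes, at 2.92 and 2.92.

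The promoters of PRELP and FMOD are shown because these neighbours on chromosome 1 were, beside LUM, the members whose brightest probe set was above the dim level and higher on both siRNA arrays. The sequences are from RefSeq (GRCh38.p14), from 250 bases before to 50 bases after the annotated start, in the direction of transcription, and 5 of the 8 genes had an entry. Capitals mark the GC box GGGCGG, the TATA box TATAAA and the E-box CANNTG on either strand. The FMOD window is chr1:203351073-203351372 on the minus strand and the PRELP window is chr1:203475556-203475855 on the plus strand.
FMOD: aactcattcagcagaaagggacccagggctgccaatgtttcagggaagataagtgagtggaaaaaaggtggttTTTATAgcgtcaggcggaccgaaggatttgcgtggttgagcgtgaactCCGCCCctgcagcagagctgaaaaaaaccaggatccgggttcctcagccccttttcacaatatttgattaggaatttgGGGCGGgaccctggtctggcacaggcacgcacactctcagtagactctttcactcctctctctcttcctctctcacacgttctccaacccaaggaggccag
PRELP: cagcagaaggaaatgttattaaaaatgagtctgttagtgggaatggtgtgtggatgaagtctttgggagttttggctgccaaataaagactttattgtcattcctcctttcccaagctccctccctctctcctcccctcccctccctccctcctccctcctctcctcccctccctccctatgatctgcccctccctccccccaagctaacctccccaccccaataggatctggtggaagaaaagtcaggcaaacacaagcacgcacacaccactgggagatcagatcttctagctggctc

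The FMOD window held 2 GC boxes, 1 TATA box and 0 E-boxes, and the PRELP window held 0 of each. Among the 35116 promoter windows of the same length, 45.0% held a GC box, 11.5% a TATA box and 68.7% an E-box. The windows had similar base composition, at 52.3% G and C for FMOD and 52.7% for PRELP, against a median of 58.7%. They differed in CG dinucleotides, with 10 for FMOD and 1 for PRELP against a median of 14. A match to such short letters is a description of the window only.

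The genes lie at 4 places in the genome, and their neighbours were examined with the same arrays. LUM and DCN lie next to each other on chromosome 12, beside KERA (keratocan) and EPYC (epiphycan). KERA read 102.1 and 9.0 on the siRNA arrays and 14.6 on the scrambled array, and EPYC read 51.0 and 72.9 on the siRNA arrays and 46.7 on the scrambled array, so that both were dim or close to it. Of the 10 measured protein-coding genes nearest to this cluster, 5 on each side, 0 were at least 2-fold higher on both siRNA arrays and 1 was at least 2-fold lower. That gene was the centriolar gene POC1B, which fell to 2292 and 1966 on the siRNA arrays, against 5391 on the scrambled array (log2 difference -1.33; adjusted p = 0.0456 by limma). The call was lost with quantile normalization (adjusted p = 0.0660), without the filter (0.138), with the 75th percentile filter (0.0699) and without the trend (0.163). It was 1 of 8 flanking genes past the filter there, with a range of log2 differences from -1.33 to 0.72, the upper end being ATP2B1, a plasma membrane calcium pump (2800 and 2662 on the siRNA arrays, 1641 on the scrambled array, adjusted p = 0.157 by limma).

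At the other loci the neighbours also went both ways. Around FMOD and PRELP on chromosome 1, OPTC (opticin) read 176.0 and 191.2 on the siRNA arrays and 226.2 on the scrambled array. Of the 5 flanking genes there past the filter, 0 were called by limma, with log2 differences from -0.38 to 0.51. Around OGN, OMD and ASPN on chromosome 9, 0 of 7 flanking genes past the filter were called, with log2 differences from -0.43 to 0.51, and ECM2 read 283.4 and 163.2 on the siRNA arrays and 192.9 on the scrambled array. Around BGN on the X chromosome 1 of 7 was called, the cancer-testis gene MAGEA1, which fell to 864.2 and 1034 on the siRNA arrays, against 3263 on the scrambled array (adjusted p = 0.0318 by limma, but 0.119 without the filter, 0.0572 with the 75th percentile filter and 0.128 without the trend). Over all 4 loci, 0 of 40 flanking genes were at least 2-fold higher on both siRNA arrays and 4 were at least 2-fold lower, 2 of these at signals past the filter. Over all 19775 genes, each by its brightest probe set, 3.92% were at least 2-fold higher and 2.36% at least 2-fold lower on both. Over all 12386 genes past the filter, limma called 1.5% higher and 1.14% lower.

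**Figure D3:**
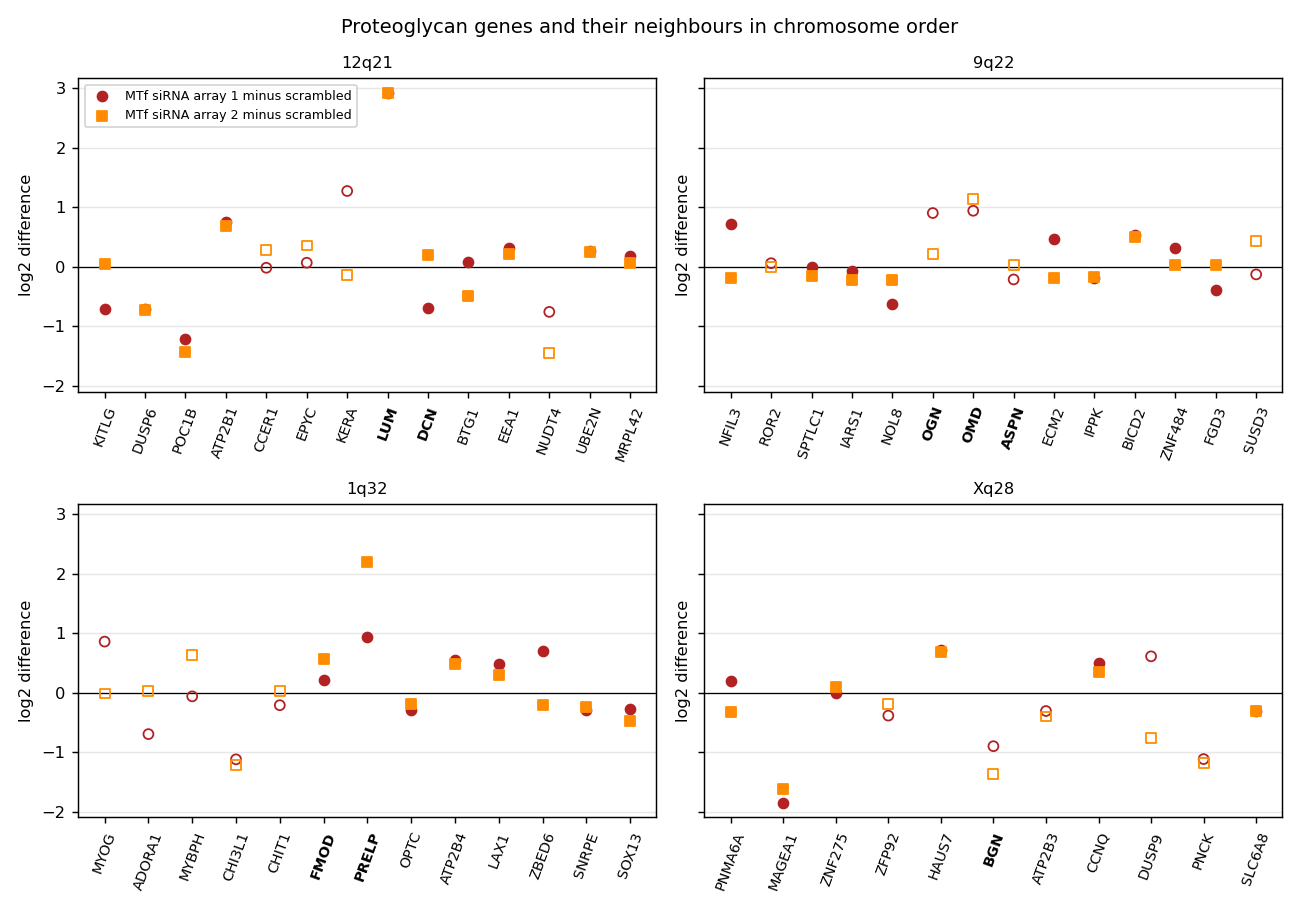
Log2 difference from the scrambled array (vertical) for the proteoglycan genes (bold names) and their neighbours in chromosome order (horizontal), on siRNA array 1 (circles) and siRNA array 2 (squares). Open symbols are genes with a dim signal on at least 1 array. LUM stands at 2.92 on both arrays, while its neighbours past the filter lie between -1.33 and 0.72 in the mean of both.

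The genes whose pair of differences was nearest to that of LUM 201744_s_at, by Euclidean distance over the 2 siRNA arrays among 12385 other genes, were FAM163A, ENTHD1, RRAS, CPNE2 and TCF4, at distances of 0.20 to 0.24 on the log2 scale. FAM163A read 1022 and 1206 on the siRNA arrays and 97.5 on the scrambled array. ENTHD1 read 645.1 and 620.2 on the siRNA arrays and 51.6 on the scrambled array. The other three read 392.3 to 596.1 on the siRNA arrays and 7.3 to 26.9 on the scrambled array. LUM differed from them in being above the dim level on the scrambled array by a wide margin, and with a pseudocount of 16 none of these 5 stayed among the 10 nearest. At that setting ENTHD1 ranked 11, FAM163A 16, CPNE2 68 and TCF4 88, and RRAS had no rank. With the higher pseudocount the ranks ran from 4 for FAM163A to 40 for TCF4. The rank of these genes thus depends on the pseudocount, while ENTHD1 and FAM163A stayed near LUM among the 12385 genes.

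Other leucine-rich proteoglycans were mostly low. Of the 10 examined (KERA, EPYC, OPTC, CHAD, CHADL, NYX, PODN, PODNL1, TSKU and ECM2), 4 passed the filter and limma called 0 (0 also at an unadjusted p under 0.05). PODNL1 (podocan-like) read 241.1 and 264.5 on the siRNA arrays and 166.8 on the scrambled array (adjusted p = 0.560), and TSKU (tsukushi, known in frog and chick to inhibit BMP signalling) read 363.8 and 534.4 on the siRNA arrays and 346.7 on the scrambled array (adjusted p = 0.696). The 4 had a median log2 difference of 0.22, against 0.097 over all genes past the filter.

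Among 26 other proteoglycan core proteins, 18 passed the filter, with a median log2 difference of 0.18, which was 0.03 on siRNA array 1 and 0.43 on siRNA array 2. Limma called 1 higher and 0 lower. The background of limma calls among genes was 2.64% in either direction. Of the 18, 8 were higher and 4 lower on both siRNA arrays, against 5781 and 4028 of all 12386 genes past the filter. An unadjusted p under 0.05 was reached by 3 (16.7%), against 22.9% of all genes past the filter. The gene called higher was SDC2, syndecan 2, a heparan sulphate proteoglycan that spans the cell membrane. Its probe set 212158_at read 2374 and 2745 on the siRNA arrays and 437.7 on the scrambled array (log2 difference 2.42 ± 0.26, SE; adjusted p = 0.0183 by limma). Unlike those of LUM, all SDC2 probe sets moved together. Probe set 212154_at read 2116 and 2704 on the siRNA arrays and 239.5 on the scrambled array (log2 difference 3.09, adjusted p = 0.0130), and 212157_at read 802.6 and 946.5 on the siRNA arrays against 182.1 on the scrambled array (log2 difference 2.00, adjusted p = 0.0345). The call for 212158_at was lost without the filter (adjusted p = 0.106) and without the trend of the moderation (adjusted p = 0.125). It was also lost with a filter at the 75th percentile (adjusted p = 0.0558). GPC4 and GPC6 were at least 2-fold higher on both siRNA arrays but not called. GPC4 read 398.8 and 886.6 on the siRNA arrays and 131.2 on the scrambled array (adjusted p = 0.0957 by limma), and it passed the filter only through the siRNA arrays. GPC6 read 2106 and 2601 on the siRNA arrays and 921.4 on the scrambled array (adjusted p = 0.0583).

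Enzymes that build and sulphate glycosaminoglycan chains had a median log2 difference of 0.28 over the 28 of 32 measured that passed the filter, 0.35 on siRNA array 1 and 0.29 on siRNA array 2. Of the 28, 17 were higher and 5 lower on both siRNA arrays, against 5781 and 4028 of all 12386 genes. None passed limma's threshold over all genes (0 of 28), and 9 (32.1%) had an unadjusted p under 0.05, against 2837 (22.9%) of the 12386 genes past the filter. CHST6, the sulphotransferase that sulphates keratan sulphate in the cornea, read 463.5 and 289.5 on the siRNA arrays and a dim 28.6 on the scrambled array, at least 3.77-fold higher (adjusted p = 0.0511). It passed with a pseudocount of 16 (adjusted p = 0.0420), with arrays centred (adjusted p = 0.00792) and in a fit over gene averages (adjusted p = 0.0357). In the other settings run with limma its adjusted p ran up to 0.207. CHST6 lay below the filter level on the scrambled array and passed the filter only through the siRNA arrays. Its p-values after the filter are therefore a description and not a test. XYLT1, which adds the xylose that starts chondroitin and heparan sulphate chains, read 491.9 and 818.8 on the siRNA arrays and 146.0 on the scrambled array (log2 difference 1.82 ± 0.40, SE; adjusted p = 0.0686), and passed with arrays centred (adjusted p = 0.0152) and in the fit over gene averages (adjusted p = 0.0332). DSEL, a relative of the dermatan sulphate epimerase, read 130.1 and 109.3 on the siRNA arrays and 406.7 on the scrambled array (log2 difference -1.45 ± 0.44, SE; adjusted p = 0.129), and passed with arrays centred (adjusted p = 0.0448). In other settings run with limma the adjusted p ran up to 0.221 for XYLT1 and 0.328 for DSEL. XYLT1 passed the filter only through the siRNA arrays and DSEL only through the scrambled array. Their p-values after the filter are likewise a description.

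Genes of the collagen fibril were collagens, enzymes and other proteins such as FN1, SPARC, THBS1 and SERPINH1 (28 measured, 20 past the filter). They had 0 calls and a median log2 difference of -0.069, which was -0.43 on siRNA array 1 and 0.13 on siRNA array 2. An unadjusted p under 0.05 was reached by 6 of the 20, against 22.9% of all genes past the filter. With arrays centred limma called 3 of them, THBS1 (adjusted p = 0.0197) and COL12A1 (adjusted p = 0.0349) included. In other settings run with limma the adjusted p ran up to 0.272 for THBS1 and 0.348 for COL12A1. P4HA2, a subunit of the enzyme that hydroxylates collagen prolines, read 7405 and 8518 on the siRNA arrays and 3731 on the scrambled array (log2 difference 1.08 ± 0.22, SE; adjusted p = 0.0559). THBS1, the matrix glycoprotein thrombospondin 1, read 107.5 and 118.8 on the siRNA arrays and 470.5 on the scrambled array in its brightest probe set (log2 difference -1.69 ± 0.43, SE; adjusted p = 0.0915). That probe set lay below the filter level on the siRNA arrays and passed the filter only through the scrambled array. Its p-values after the filter are therefore a description and not a test. Another THBS1 probe set, 201110_s_at, read 5.7 and 8.3 on the siRNA arrays and 412.2 on the scrambled array, at least 4.24-fold lower, whereas 215775_at, above the dim level on all arrays, read 132.5 and 194.5 on the siRNA arrays and 161.3 on the scrambled array, so that the groups overlapped. COL12A1, a collagen found on the surface of fibrils, read 319.7 and 357.8 on the siRNA arrays and 813.0 on the scrambled array (adjusted p = 0.112), and its probe set 234951_s_at went the other way (log2 difference 0.86, adjusted p = 0.351).

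Of the receptors and growth factors that bind these proteoglycans, 21 were measured and 12 passed the filter. Limma called 0 higher and 2 lower, and the median log2 difference was 0.044. Over all genes past the filter, it called 1.5% higher and 1.14% lower. An unadjusted p under 0.05 was reached by 5 of the 12 (41.7%), against 22.9% of all genes past the filter. These included ITGA2 and ITGB1, which were higher (log2 differences 1.39 and 0.47), and CCN2, which was lower (-0.84). MET, the receptor for hepatocyte growth factor that decorin binds, fell to 5509 and 4672 on the siRNA arrays, against 13924 on the scrambled array (log2 difference -1.45 ± 0.22, SE; adjusted p = 0.0290 by limma). Its other probe sets had log2 differences of -0.81, -0.81 and -0.63 (adjusted p = 0.161, 0.206 and 0.408 by limma). TLR4, the Toll-like receptor for bacterial lipopolysaccharide and a receptor of biglycan, fell to 418.1 and 327.3 on the siRNA arrays, against 1349 on the scrambled array (log2 difference -1.74 ± 0.32, SE; adjusted p = 0.0465). The other TLR4 probe sets were lower on both siRNA arrays too, with log2 differences of -1.41, -0.58 and -1.09 (adjusted p = 0.0676, 0.451 and 0.170). Averaged over their probe sets past the filter, neither receptor gene passed (adjusted p = 0.0693 for MET and 0.0624 for TLR4). Both calls were also lost without the filter and without the trend, and that of MET with a filter at the 75th percentile (adjusted p = 0.0572), which TLR4 did not pass.

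Enzymes that cleave these proteoglycans or their precursors (11 measured, 7 past the filter) had 0 calls and a median log2 difference of 0.46, and 3 had an unadjusted p under 0.05 (42.9%, against 22.9% of all genes past the filter). The median was 0.16 on siRNA array 1 and 0.75 on siRNA array 2. Over all genes past the filter it was 0.057 and 0.14 on these arrays, and limma called 2.64% in either direction. BMP1, the proteinase that matures procollagen and pro-biglycan, read 885.2 and 946.9 on the siRNA arrays and 406.8 on the scrambled array (log2 difference 1.08 ± 0.29, SE; adjusted p = 0.102). The gelatinase gene MMP2 read 511.3 and 827.1 on the siRNA arrays and 250.6 on the scrambled array in its brightest probe set (log2 difference 1.23; adjusted p = 0.135). Its probe set 1566678_at overlapped between the groups, at 69.9 and 313.4 on the siRNA arrays and 212.9 on the scrambled array, and the mean of both gave a log2 difference of 0.45 (adjusted p = 0.657). MMP14, a membrane-bound matrix metalloproteinase, read 2035 and 2312 on the siRNA arrays and 1173 on the scrambled array (adjusted p = 0.123), while its probe set 217279_x_at read 809.1 and 134.0 on the siRNA arrays and 176.9 on the scrambled array, with the groups overlapping.

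**Figure D4:**
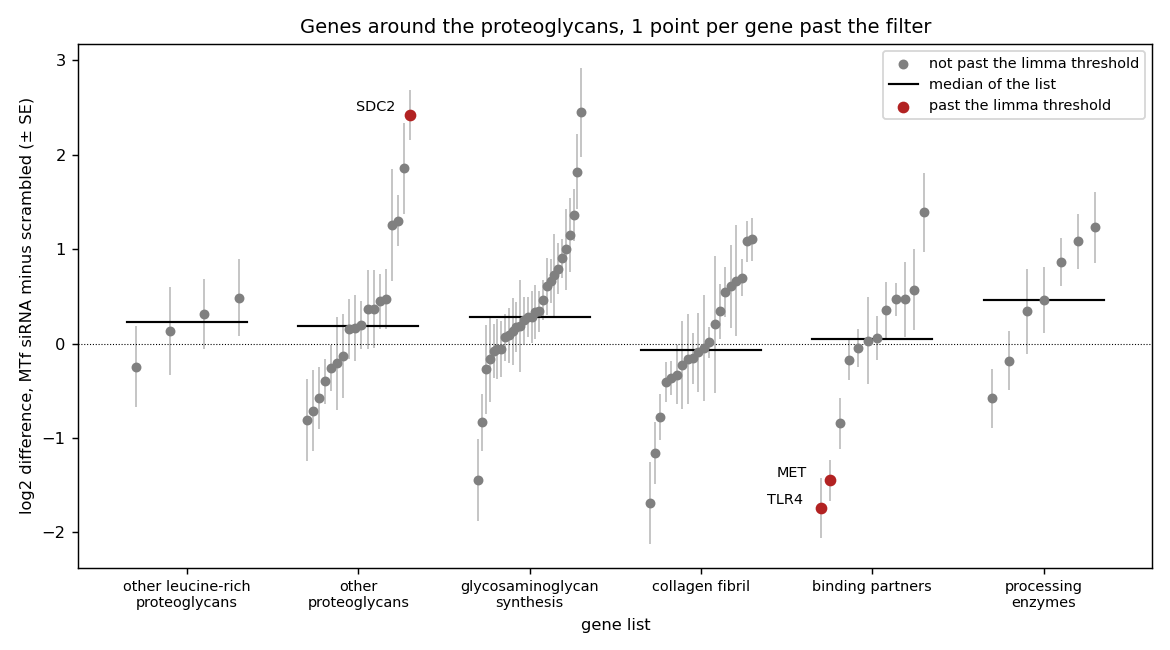
Log2 difference, siRNA minus scrambled (vertical, with the SE of the limma model), of each gene past the filter in 6 lists around the proteoglycans (horizontal). Bars across are list medians. SDC2 at 2.42 and MET and TLR4 at -1.45 and -1.74 are the 3 genes past the limma threshold (red).

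Lumican and decorin are also used as markers of fibroblasts, so other fibroblast markers were measured beside them. The signals of 14 such genes summed to 1734 and 2220 in the siRNA cells and to 2101 in the scrambled cells. Of the 14, 3 passed the filter and 0 were called by limma (0 at an unadjusted p under 0.05), 4 were dim on all arrays and 3 were above the dim level on all arrays. COL3A1 (45.2 and 60.7 on the siRNA arrays, 59.1 on the scrambled array) and PDGFRB (23.0 and 28.8 on the siRNA arrays, 35.2 on the scrambled array) were dim throughout. COL1A1 read 487.9 and 565.1 on the siRNA arrays and 671.9 on the scrambled array. COL6A3 did not pass the filter and read 197.6 and 232.3 on the siRNA arrays, against 33.2 on the scrambled array. DPT, also not past the filter, went the other way, at 9.7 and 11.8 on the siRNA arrays and 105.6 on the scrambled array. In its brightest probe set THY1 read 216.8 and 250.2 on the siRNA arrays and 256.4 on the scrambled array, while its dimmer 208850_s_at was higher on both siRNA arrays. Of 7 markers of mural cells 4 passed the filter and 0 were called (0 at an unadjusted p under 0.05), and their signals summed to 1821 and 1635 on the siRNA arrays and 1609 on the scrambled array.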

How the data were processed

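The deposited values are probe set intensities, 1 per probe set and array, made by the authors with GCOS 1.3, per the submitters' processing notes. Their means after trimming 2% at each end were near 1000 on every array (1000.124 and 1000.126 for the siRNA arrays and 1000.137 for the scrambled array). Its other settings were not stated. Of 54675 probe sets, 62 controls were left out. The annotation gave 41091 probe sets 1 gene, 1801 several and 11721 none.

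Values were used on the scale log2(signal + 47.4), 47.4 being the 25th percentile of all signals. Probe sets above the median mean value (27306) were tested with limma 3.58.1 in R 4.3.3 (lmFit, eBayes with trend, two-sided, Benjamini-Hochberg at 0.05), siRNA (n = 2) against scrambled (n = 1). The model has 1 residual degree of freedom plus 6.36 from moderation, and the lone scrambled array is assumed to vary like the siRNA arrays. A gene is its probe set with the highest mean. The script was tested on simulated data.

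Members and lists were chosen with earlier results of these data known. Named were all member probe sets, called genes of each list (otherwise the 3 with the largest smaller difference over both siRNA arrays), 5 neighbours on each side and the 5 genes nearest to LUM. Some other genes were named after their values were seen. The level of 97.2 was chosen after the values were seen. Alternatives were quantile normalization, centring, a lower (16) and a higher pseudocount, other filters, no trend, averaged probe sets, fold thresholds of 1.5 and 3, and each siRNA array left out. Gene order came from RefSeq (GRCh38.p14). The number of arrays limits the precision.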

Additional observations from a re-analysis of the deposited data

Results flagged for a closer look

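Control probe sets for 18S ribosomal RNA, used in no comparison, were brighter on siRNA array 1, by a median of 4.01 times the scrambled array. Its part in the proteoglycan values was not tested, and LUM 201744_s_at read 4850 on that array and 4841 on siRNA array 2, where the control ratio was 0.963.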

How the results depend on the processing

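The log2 difference of LUM kept its sign under all 7 alternatives run for it: 2.82 with quantile normalization, 2.75 with arrays centred, 2.98 with a pseudocount of 16, 2.77 with the higher one, and 1.51 as the mean of its probe sets. It was 2.92 with either siRNA array left out. PRELP, FMOD, OGN, OMD and BGN also kept their sign in these 7, while DCN did in 6 and ASPN in 5. The median over the 8 genes was 0.30 with arrays centred, 0.66 with a pseudocount of 16, 0.299 with the higher one, 0.23 as means of probe sets, and 0.38 to 0.55 with an array left out. Member probe sets at least 2-fold higher numbered 3 with a pseudocount of 16 and 4 at 1.5-fold, and those lower 3 and 3, with 1 lower when arrays were centred. The counts over all 54613 probe sets rose too. With a pseudocount of 16 they were 3448 higher and 2202 lower, at 1.5-fold 5902 and 3852, and 1879 were lower with arrays centred. With a single siRNA array against the scrambled array, 1 to 4 member probe sets were at least 2-fold higher and 1 to 2 lower. Over all probe sets 3809 to 5078 were higher and 2881 to 2883 lower in the same way. Over all probe sets limma called 324 higher and 247 lower, against 203 and 157 with quantile normalization, 594 and 934 with arrays centred, 1 and 0 without the filter, 6 and 3 with the 75th percentile filter, and 1 and 0 without the trend. In the 6 lists 1 gene was higher and 2 lower, against 5 and 7 with arrays centred, 2 higher with a pseudocount of 16, 0 and 0 without the filter, with the 75th percentile filter or without the trend, and 7 and 0 with probe sets averaged. The causes were not tested. With an siRNA array left out no residual degree of freedom is left, so that limma gave no test there. No paired analysis was possible because there was only 1 scrambled array. Signals near those of the bacterial controls limit what can be said of OGN, ASPN, OMD, BGN and most DCN probe sets.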
